A study of Mus musculus with 19 samples.

Results

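The merged transcript models of the study held 4541 assembled isoforms that retain an annotated intron. An isoform was counted if 1 of its exons ran across a whole intron of an Ensembl transcript in the same locus and on the same strand, and began and ended within the exons on either side of that intron. These 4541 isoforms were 4.97% of the 91409 transcripts that assembly added to the annotation. They were 8.78% of the 51748 added transcripts that carried a strand and lay in a locus annotated on that strand. They held 3569 distinct introns of 2319 host genes, and 3211 separate sites remained once introns that overlap were merged. The rule used only exon positions and no expression value.

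The models came from single whole mouse blastocysts at E3.25, 8 of them *Upf2* -/- (*Upf2*-null) and 11 *Upf2* +/+ (control), each sequenced as its own library. The null allele is global: mice with loxP sites around exons 2 and 3 of *Upf2* were crossed to a Cre line active in the early embryo, and the resulting heterozygotes were bred together, so every cell of a null embryo lacks both exons. All embryos shared the same route: zygotes of superovulated females of 4-8 weeks of age were grown in M16 medium to the early blastocyst stage, spiked with ERCC control RNAs, and typed by PCR on their cDNA. Every library averages trophectoderm, epiblast and primitive endoderm precursors, and fewer cells of a type cannot be told apart from less RNA per cell.

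Totals ran from 4056072 to 5993745 counts per embryo. The summed level of 5 trophectoderm markers was 712 to 1414 CPM (counts scaled to a common library size) over all embryos, and that of 5 markers of the cumulus and granulosa cells that surround the egg was at most 0.849 CPM. *Upf2* itself spans chr2:5951469-6056703 and had a lowest, median and highest level of 64.3, 88.7 and 122.6 CPM in null embryos, against 37.2, 55.2 and 87.8 CPM in controls. These counts are summed over the whole gene and include the exons that the deletion leaves, so they are no check of the genotype. The log2 fold change was 0.66 ± 0.18 (SE). The adjusted p was 0.185 by edgeR, 0.0416 by DESeq2 and 0.0211 by limma voom with quality weights. No isoform of *Upf2* met the rule.

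Intron retention leaves an intron in an otherwise spliced RNA. Such RNAs are often held in the nucleus until they are spliced or degraded, and they serve to delay or lower expression of their gene in many cell types. Where they reach the cytoplasm, a stop codon within the intron that lies upstream of an exon junction makes them candidates for nonsense-mediated decay (NMD), the pathway in which UPF2 acts as a bridge between UPF1 and the exon junction complex. Most introns are removed by the major spliceosome and start with GT. A small class is removed by the slower minor spliceosome, and many of these U12-type introns start with ATATCC or GTATCC and carry a CCTTAA-like branch site near their end.

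Sequences of the retained introns were read from annotated transcripts of GENCODE M21 on GRCm38. Of the 3569 introns, 1983 (55.6%) had at least 50 bases and a sequence known in full. Introns under 50 bases were left out of the splice-site shares, here and in the introns compared. The windows below show the 3 last exon bases and the first 12 intron bases, with the first 6 intron bases in capitals. They are printed because they tell apart the classes of intron described here, and they begin with introns of U12 type, among them that of *9930104L06Rik*, a host gene that was higher in *Upf2*-null embryos.
9930104L06Rik intron 3 (chr4:124940546-124942352, plus strand): ctcATATCCttcgag
Spc24 intron 2 (chr9:21757395-21757684, minus strand): acgATATCCtttgct
Prim1 intron 7 (chr10:128022973-128023582, plus strand): agaATATCCtttcct
Usp21 intron 10 (chr1:171282803-171283014, minus strand): tccATATCCtaatct
Vps16 intron 13 (chr2:130440580-130440706, plus strand): ccaGTATCCctatgt
The last 27 bases of the same introns, followed by 3 exon bases, held CCTTAA, shown in capitals.
9930104L06Rik intron 3: tctgagcagtCCTTAActtctgggaaggta
Spc24 intron 2: ctgagccttggCCTTAAcccagtgcactca
Prim1 intron 7: tgaccatgctCCTTAAtgaagcatcaccaa
Usp21 intron 10: ccccagtgctCCTTAAccagggcttagatc
Vps16 intron 13: actgatCCTTAAccaaggaaaacacagata
For contrast, introns of the common type in other host genes that were higher in *Upf2*-null embryos, and in 2 splicing regulators known for retained introns, started as follows.
Chchd5 intron 1 (chr2:129129858-129130177, plus strand): gatGTGAGTtacaac
Chchd5 intron 2 (chr2:129130319-129130400, plus strand): ccaGTGAGTgtacaa
Arl16 intron 4 (chr11:120465822-120465983, minus strand): aatGTATGGgtctaa
Snhg5 intron 2 (chr9:88521976-88522306, minus strand): aggGTGTGTattgaa
Clk4 intron 7 (chr11:51275579-51275769, plus strand): attGTAAGTattcat
Tra2a intron 5 (chr6:49245611-49246848, minus strand): tcaGTAAGAttgggt

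Of the retained introns with sequence, 23 (1.16%) started with ATATCC or GTATCC. The comparison used introns that an annotated exon also spans, since few others have sequence. Among 2747 such introns of the same host genes that no assembled isoform retained, 7 (0.255%) had either start, and among 10979 in all genes 56 did (0.510%). The starts were sought at the first 6 intron bases on the transcribed strand, and CCTTAA or CCTTGA in the last 27 intron bases; the motifs do not overlap. Either start together with either branch motif was found in 9 retained introns (0.454%), 3 (0.109%) of the host gene introns and 23 (0.209%) of those in all genes. An annotated retaining transcript can itself be the model of an RNA present in the embryos, so the compared introns are not shown to be spliced there.

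The 23 introns with a U12-type start lay in 20 host genes and were 104 to 1807 bases long. *Spc24*, which encodes a subunit of the NDC80 kinetochore complex, had 2 of them, intron 2 with ATATCC and intron 4 with GTATCC, and 6 assembled isoforms retained its intron 2. *Prim1*, the catalytic subunit of DNA primase, had intron 7 retained at 2 annotated ends, and *Cnep1r1*, a regulator of a nuclear envelope phosphatase, had intron 4 retained likewise. Such pairs share their start and nearly all of their sequence. *Tardbp*, an RNA-binding regulator of splicing, *Vps16*, a subunit of endosomal tethering complexes, and *Usp21*, a deubiquitinating enzyme, had 1 each. That of *Tardbp* held neither branch motif, while those of *Vps16* and *Usp21* held CCTTAA. Intron 6 of *Sms* held both ATATCC and CCTTAA.

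Most other features of the splice sites were close to those of the compared introns. GT-AG ends made up 95.6% of the 1983 retained introns with sequence and 97.5% of the host gene introns compared, and GC-AG ends 2.02% and 1.57%. AT-AC ends were rare and differed more, with 8 introns (0.403%) and 2 introns (0.073%), as did ends of any other kind (1.97% and 0.837%). Median GC content was 52.4% and 51.7%. G at intron base 5, the position that pairs with U1 snRNA beside the GT, was present in 74.2% and 77.5%. The pyrimidine share of the tract before the AG had a median of 76.5% in both.

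The retained introns were short. Their median length was 173 bases, with quartiles of 95 and 384, where the other 32190 introns of the same host genes had a median of 812 and quartiles of 248 and 2135. Of the host gene introns of up to 100 bases, 25.4% were retained in an assembled isoform. The share fell in each longer class, to 14.9% in the class up to 500 bases, 2.81% in the class up to 2000 bases and 0 of 3054 introns over 5000 bases. A longer intron needs more reads to be assembled without a gap, and how far this moved the lengths was not tested.

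**Figure D1:**
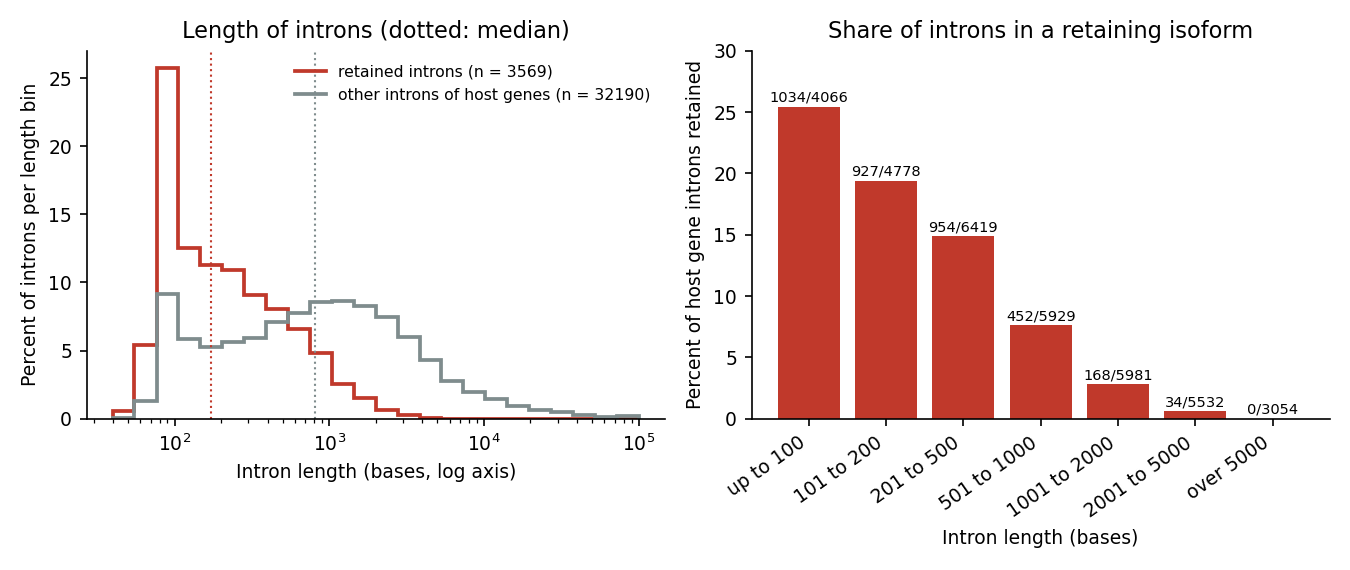
Left, percent of introns per length bin on a log axis of bases, for the 3569 retained introns and the 32190 other introns of the same host genes, with dotted lines at the medians of 173 and 812 bases. Right, percent of host gene introns held by a retaining isoform in each length class, with retained and total numbers above the bars; the share falls from 25.4% to 0.

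The 3 longest retained introns had 3974 bases in *Cep63*, a centriole duplication factor, 3908 bases in *Hnrnpu*, a nuclear matrix RNA-binding protein, and 3764 bases in the unprocessed pseudogene *Gm21811*. At the other end, 16 retained introns were under 50 bases, far below the usual size of mouse introns. The 2 shortest had 5 bases each, in *4930533K18Rik* and *Gm47283*, and started with AGTGGA and AGCACA. A 20-base gap in *Thoc6*, a subunit of an mRNA export complex, was the next. Such gaps are differences between annotated models and not introns of a usual kind, and leaving them out moved the median length to 174.

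Retained introns were last introns more often than others of the same genes. Of the retained introns 36.2% were the last intron of at least 1 annotated transcript, against 23.8% of the other host gene introns, and 26.3% against 26.0% were a first intron. Most lay between coding exons, 71.4% of the retained and 74.7% of the others. In 3′ untranslated regions lay 4.31% and 2.12%, and in 5′ untranslated regions 5.55% and 6.85%. Of the retained introns between coding exons, 32.8% had a length divisible by 3, near the 33.3% of the others. An annotated exon already spanned 1725 of the retained introns (48.3%), against 8.56% of the other introns. Introns of a gene share its level and annotation, so these shares are given as descriptions.

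Most isoforms retained a single intron. There were 3923 such isoforms, 533 with 2 and 85 with 3 or more, up to 8. The isoforms had a median of 6 exons, and 32 had a single exon. Among host genes, 1540 had 1 retained intron, 494 had 2 and 285 had 3 or more. *Mapk7*, the kinase ERK5, had the most, 10, and *Dpp7*, a lysosomal dipeptidase, had 9. *Gps1*, a COP9 signalosome subunit, *Sharpin*, part of the linear ubiquitin chain assembly complex, and *Rgs11*, a regulator of G protein signalling, had 8 each, and 9 hosts had at least 8. The adjusted p of these 5 genes was 0.624 to 0.954 (edgeR). Introns with different annotated ends were counted separately even where they overlap, so these numbers are not counts of separate sites. Most of the *Mapk7* introns overlap another, many of them within chr11:61493062-61493646. The *Rgs11* gene shares 4836 bases with *Arhgdig* on the other strand. Host genes were mostly protein-coding (2214 genes), and 32 were lincRNAs.

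Spliced models were also assembled where no intron exists. On the ERCC spike-ins, which are added RNAs without introns, there were 11 such models on 7 spike-in references. The reads for the models were mapped without strand, and 1313 of the 2319 host genes overlapped no gene on the other strand. The models were merged over all embryos, so they do not show in which genotype an isoform was present.

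Reading frames in the retaining isoforms ended early in most cases that could be read. Translation was read from the start codon of the annotated transcript whose intron was retained, and a stop was called early if it lay over 50 bases upstream of the last exon junction, the usual rule for an NMD substrate. Of 2220 isoforms that hold this start codon, 1435 could be read to a stop, and 973 of them (67.8%) had an early stop, a median of 717 bases before the last junction. Of the annotated transcripts read alike, 527 of 3664 (14.4%) did. With any start codon of the gene, the share was 68.2% in retaining isoforms and 48.0% in the other assembled isoforms of the same loci.

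The early stop lay inside a retained intron in 588 of the 973 isoforms (60.4%), downstream of one in 120 (12.3%) and upstream of all in 265 (27.2%). By place of the intron, 75.7% of isoforms with a retained intron between coding exons had an early stop, 47.9% with one in the 3′ untranslated region and 27.3% with one in the 5′ untranslated region. A reading ends where sequence is unknown. Among the isoforms whose retained introns all have sequence, 1185 of 1313 were read to a stop and 68.6% of them had an early stop.

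**Figure D2:**
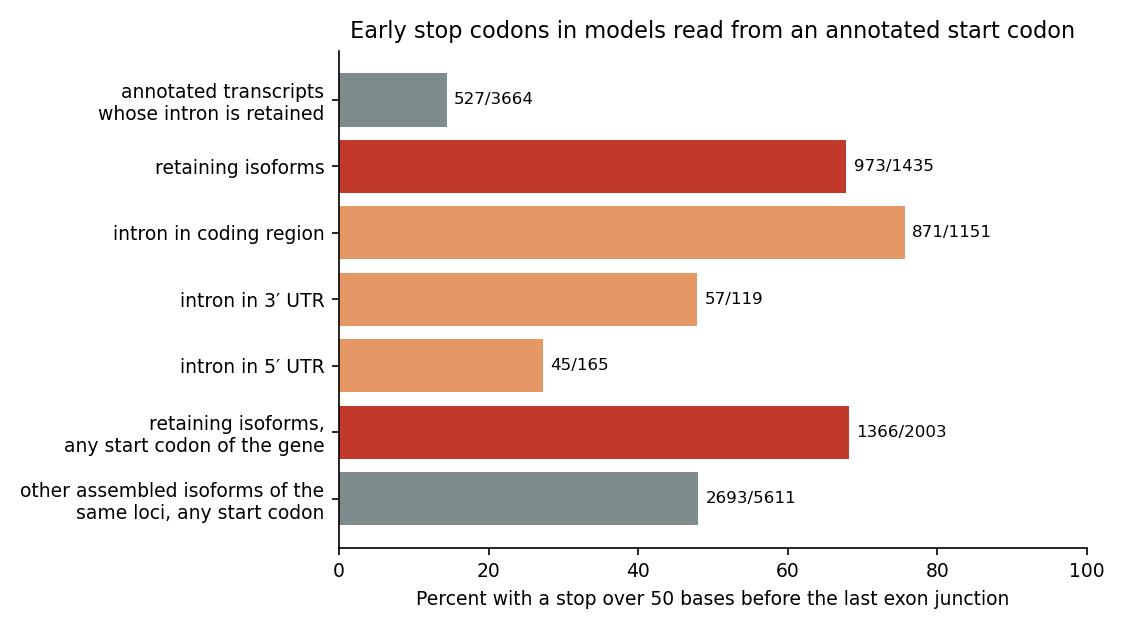
Percent of models with a stop codon over 50 bases before the last exon junction, with numbers at the bars, for annotated transcripts, retaining isoforms, retaining isoforms by place of the intron, and other assembled isoforms. Retaining isoforms, with the furthest stop over the starts read, reach 67.8%, and annotated transcripts, each read from its own start, 14.4%.

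Host genes had higher counts than other genes. Levels are TMM-normalized CPM per gene, not divided by length. Of the 2319 host genes, 2282 were in the count table and 2245 passed the filter of at least 10 counts in at least 1 embryo, so 37 in the table fell below it, 13 of them with no count. Hosts were 13.1% of the 17137 genes tested. They were 0.992% of the genes in the lowest of 10 level bins, which split the genes by mean log2 CPM into equal numbers, and 33.3% in the highest. An isoform must have reads to be assembled, and how much of this order comes from assembly was not tested.

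Loss of *Upf2* moved few host genes past the threshold. At an adjusted p under 0.1 (edgeR's quasi-likelihood test, Benjamini-Hochberg adjustment over all genes tested), 7 of the 2245 host genes were called (0.312%), where 33 of all 17137 genes (0.193%) were. All 7 were higher in *Upf2*-null embryos (background higher 0.175%) and 0 were lower (background lower 0.0175%). Among other genes, weighted to the same level bins as the hosts, 0.317% were called, so the share in host genes was at that of genes of similar level. At an unadjusted p under 0.05, 107 host genes were higher (background 5.15%) and 93 lower (background 7.38%), together 8.91% of hosts, against 9.41% of other genes at the same levels and 12.5% of all genes tested. DESeq2 called 23 host genes, 16 of them higher (1.02%, background 1.03%), and limma voom with quality weights called 19 (0.846%, background 0.665%).

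The median of the host genes lay at that of all genes. Their median log2 fold change, *Upf2*-null minus control, was −0.021, and that of all genes tested was −0.020. Within level bins, the median of hosts minus that of the other genes averaged 0.0032, weighted by hosts, and the hosts lay above the others in 5 of the 10 bins. In bins 6 to 10, which held 1953 of the hosts, the difference ran from −0.073 to 0.023. The widest difference, 0.42, was in the lowest bin, with 17 hosts, where 13 of the hosts (76.5%) and 50.2% of the other genes had an unadjusted p under 0.05 but 0 were called. Host genes held 28.1% ± 0.546 (SD, n = 8) of the tested counts in *Upf2*-null embryos and 28.1% ± 0.353 (SD, n = 11) in controls.

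**Figure D3:**
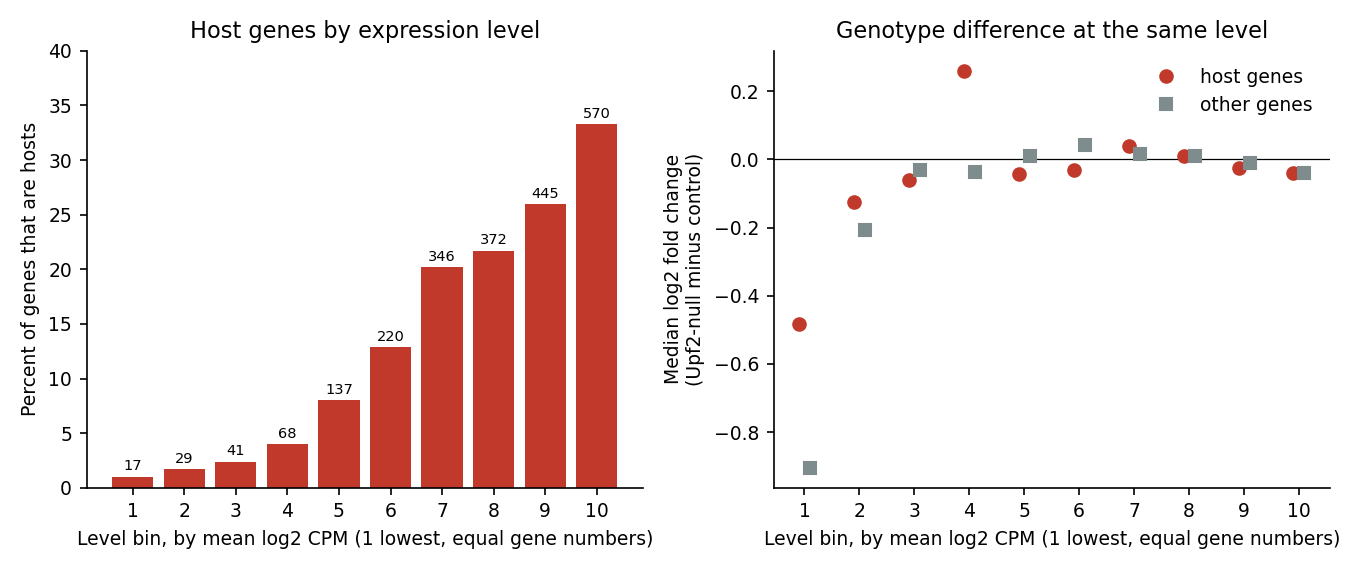
Left, percent of genes that host a retained intron in each level bin by mean log2 CPM, with the number of hosts above each bar, from 0.992% to 33.3%. Right, median log2 fold change (*Upf2*-null minus control) of host genes (circles) and other genes (squares) in each bin; from bin 5 upward they differ by at most 0.073.

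The hosts of isoforms with an early stop, the kind that NMD could degrade, had a similar median. Of 660 tested, edgeR called 2 (0.303%), *9930104L06Rik* and *Chchd5*, where 0.193% of all genes were called. Among other genes weighted to the levels of all hosts, 0.317% were called. No share matched to the levels of these 660 is given, whose median was 117 CPM beside 92.6 CPM for all hosts. DESeq2 called 5 of them (0.758%, all genes 1.03%) and voom 6 (0.909%, all genes 0.665%). With no adjustment, 33 had a higher and 24 a lower level at p under 0.05, and the median log2 fold change was −0.023. Of the hosts of isoforms read without an early stop (201 tested), 0 were called by edgeR, 4 by DESeq2 (1.99%) and 2 by voom (0.995%). In that set 8 were higher and 9 lower at an unadjusted p under 0.05, and the median was −0.021. The difference between these sets was not tested. Hosts with 3 or more retained introns had a median of −0.045 (282 tested, 1 called, 0.355%). Hosts only of introns that no annotated exon spans had a median of −0.012 (1079 tested, 3 called, 0.278%), and hosts only of introns that one does had −0.021 (922 tested, 4 called, 0.434%). A gene count sums all isoforms, and read pairs wholly inside an intron enter it only where an annotated exon spans the intron. A change of a rare retaining isoform within a stable gene was thus not detectable in these counts.

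The 7 host genes past the threshold had different roles. *Ddit3* (ENSMUSG00000025408, chr10:127290774-127296288) encodes CHOP, a transcription factor of the integrated stress response, whose mRNA carries an upstream reading frame. Its lowest, median and highest levels were 50.7, 60.4 and 87.0 CPM in null embryos, against 9.88, 28.0 and 45.3 CPM in controls. The genotypes did not overlap, the log2 fold change was 1.34 ± 0.23 (SE) and the adjusted p was 0.0251 (edgeR). One assembled isoform retained its intron 3, the last, of 244 bases between coding exons (chr10:127295479-127295722). No annotated exon spans this intron, so read pairs that lie wholly inside it are not in the count. The gene overlaps *Mars*, a methionyl-tRNA synthetase, by 68 bases on the other strand, and *Mars* had an adjusted p of 0.929 (edgeR).

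*Tmem222* (ENSMUSG00000028857, chr4:133266045-133277792) encodes a membrane protein. It had 237, 263 and 298 CPM (lowest, median, highest) in *Upf2*-null embryos and 176, 201 and 236.6 CPM in controls. The lowest null embryo, at 236.8 CPM, lay just above the highest control. The log2 fold change was 0.36 ± 0.063 (SE), the smallest of the 7, with an adjusted p of 0.0251 (edgeR). Its intron 2, of 148 bases, was retained in 1 isoform. *Ddit3* and *Tmem222* kept the call with each embryo left out in turn.

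*9930104L06Rik* (ENSMUSG00000044730, chr4:124937048-124944656) had 40.2, 47.8 and 63.4 CPM in null embryos, against 8.98, 21.8 and 32.6 CPM in controls. No control reached the lowest null embryo. The log2 fold change was 1.14 ± 0.22 (SE) with an adjusted p of 0.0543 (edgeR), and 0.109 and 0.128 without *Upf2*-null embryo 4 or 5. Both of its retaining isoforms kept intron 3, the 1807-base intron with the ATATCC start, and both had an early stop, up to 1904 bases before the last junction. An 88-base or 91-base intron near the 5′ end, which 2 annotated transcripts start differently, was also kept in 1 of them. Annotated exons span these introns, so their reads enter the count. *9930104L06Rik* was the single called gene among the 20 hosts of introns with a U12-type start, where 0.193% of all genes and 0.312% of host genes were called. The median log2 fold change of the 20 was 0.058. At an unadjusted p under 0.05 (edgeR), 2 of them were higher and 1, *Sms*, lower (log2 fold change −0.42). The locus of *9930104L06Rik* shares 2264 bases with *Cdca8* on the other strand, a chromosomal passenger complex subunit, which had an adjusted p of 0.683.

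*Arl16*, a small GTPase of the ARF-like family, had 72.3, 96.8 and 153 CPM in null embryos, against 48.7, 63.2 and 80.5 CPM in controls. Of the null embryos 7 of 8 lay above every control. The log2 fold change was 0.72 ± 0.14 (SE) with an adjusted p of 0.0543 (edgeR), and 0.129, 0.118 and 0.137 without *Upf2*-null embryo 4, 6 or 7. Its intron 4, the last, of 162 bases, was retained in 1 isoform.

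The other called hosts were closer to the threshold. *Chchd5*, a small protein of the mitochondrial intermembrane space, had 213, 257 and 327 CPM in null embryos, against 151, 189 and 235 CPM in controls, an adjusted p of 0.0920 (edgeR) and a log2 fold change of 0.42. Its introns 1 and 2 were each retained in an isoform with an early stop, 623 and 244 bases before the last junction. *Snhg5*, a noncoding snoRNA host gene, belongs to a class whose spliced RNAs are often degraded by NMD. It had 168, 218 and 237 CPM in null embryos, against 83.3, 142 and 187 CPM in controls, with a log2 fold change of 0.69 and an adjusted p of 0.0938. In both genes 6 of 8 null embryos lay above every control.

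*Gm21811* had 12.9, 20.7 and 25.4 CPM in null embryos, against 6.19, 9.05 and 12.4 CPM in controls, without overlap, at a log2 fold change of 1.12 and an adjusted p of 0.0771 (edgeR). Copies close to this pseudogene can share its reads, so its count is uncertain. *Chchd5*, *Snhg5* and *Gm21811* each kept the call in 5 of the 19 fits that left out 1 embryo, with adjusted p-values up to 0.186, 0.189 and 0.166. Embryos whose loss ended all 3 calls were *Upf2*-null 1, 4, 5, 6, 7 and 8 and control 1, 4, 7, 8, 9, 10 and 11. Control 3 also ended the calls of *Chchd5* and *Gm21811*, and *Upf2*-null 2 that of *Snhg5*.

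**Figure D4:**
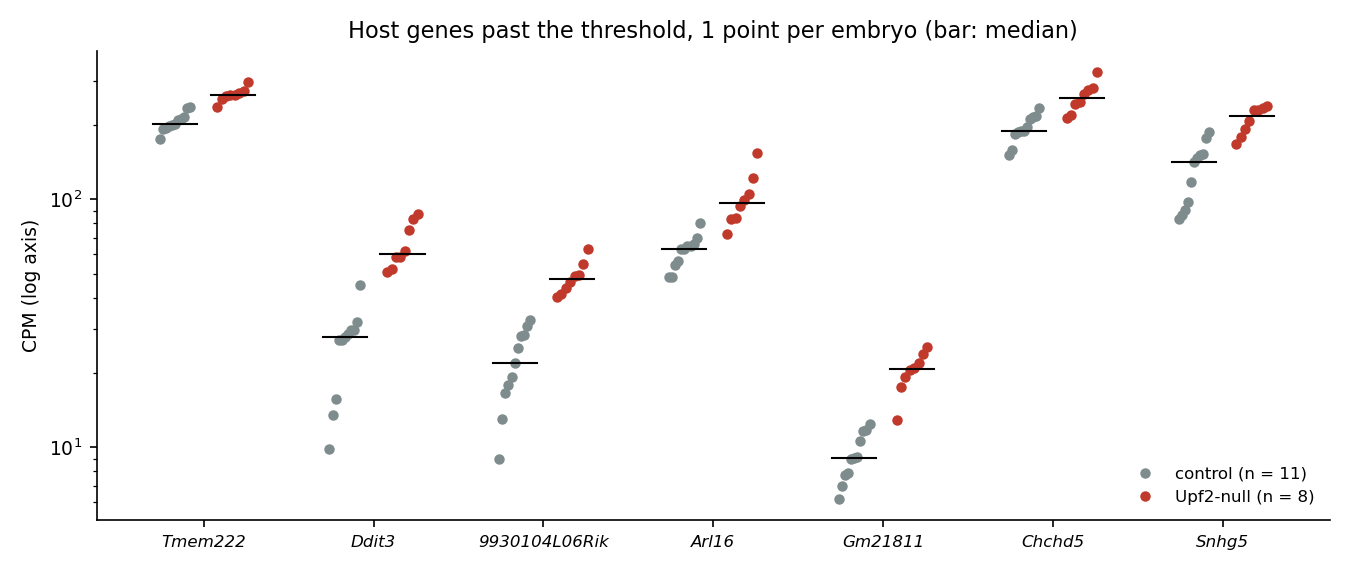
CPM on a log axis of the 7 host genes with an adjusted p under 0.1, 1 point per embryo and a bar at the median, for 11 controls (grey) and 8 *Upf2*-null embryos (red). Null and control embryos do not overlap for *Tmem222*, *Ddit3*, *9930104L06Rik* and *Gm21811*, and overlap for *Arl16*, *Chchd5* and *Snhg5*.

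**Figure D5:**
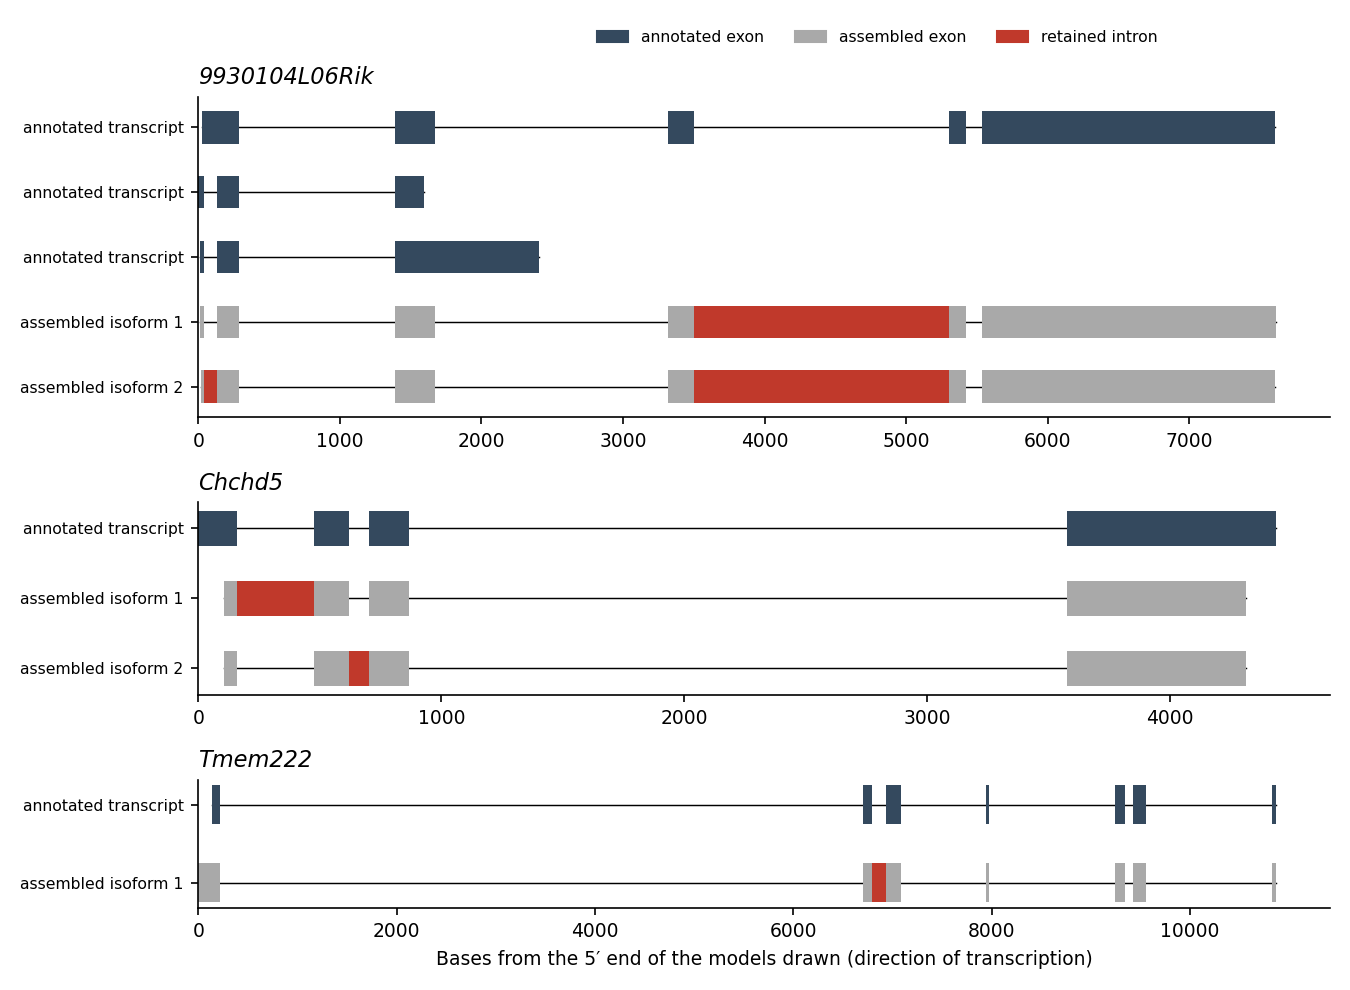
Exons of annotated transcripts and of retaining isoforms of *9930104L06Rik*, *Chchd5* and *Tmem222*, in bases from the 5′ end of the models drawn, with retained introns in red. Both isoforms of *9930104L06Rik* keep the 1807-base intron, and those of *Chchd5* keep 1 intron each, of 320 and 82 bases.

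No host gene was lower past the threshold by edgeR. Among the 5 hosts with the lowest p below 0 on the log2 scale, *Nanog*, a pluripotency factor of the epiblast, had 124, 174 and 214 CPM in null embryos, against 187, 240 and 328 CPM in controls. The log2 fold change was −0.47 ± 0.12 (SE), with an adjusted p of 0.150 (edgeR) and 0.0277 by DESeq2, and the genotypes overlapped. Its first intron, of 203 bases in the 5′ untranslated region, was retained in 2 isoforms. The 4 epiblast markers, *Nanog* among them, together ranged from 223 to 330 CPM in null embryos and from 322 to 496 CPM in controls. *Nanog* had the highest median of the 4, 205 CPM over all embryos, so this sum largely restates its own level. By log2 fold change 3 of the markers were below 0 and 1 above. The summed primitive endoderm markers had 129 to 234 CPM in null embryos and 89.1 to 223 CPM in controls. Those of trophectoderm had 895 to 1376 and 712 to 1414 CPM. What part cell numbers have in the *Nanog* values was not tested.

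The other 4 were genes of the 2-cell stage programme or its relatives, *Zscan4c* and *Zscan4f*, zinc finger genes active at zygotic genome activation, and the PRAME family genes *BC080695* and *Pramef25*. None exceeded 1.74 CPM in a *Upf2*-null embryo. In controls their medians were 0.866 to 1.91 CPM, and their highest values, 114 CPM for *Zscan4f* to 319 CPM for *Pramef25*, all came from control embryo 2. Adjusted p-values were 0.137 to 0.173 (edgeR), and 0.392 for *BC080695* and *Zscan4c* and 0.712 for *Pramef25* without control embryos 2 and 4. DESeq2 gave 0.0174 for *BC080695* and 0.0651 for *Pramef25*, and voom 0.0893 for *Zscan4c*. These genes have close copies that can share reads.

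Genes of RNA processing were hosts in shares that differed from list to list. Of the SR proteins tested, the splicing activators rich in arginine and serine, 8 of 13 were hosts, against 13.1% of all genes. *Srsf5* was among these 8 only through a gap of 21 bases. Of the SR protein kinases 3 of 6 were, of nuclear RNA decay genes 8 of 15, of minor spliceosome genes 3 of 10, of core spliceosome genes 9 of 40, of mRNA export genes 5 of 15 and of NMD factors 4 of 16. The host share in the highest level bin was 33.3%, and the last 4 of these lists were near or below it. The median log2 fold change of the hosts was −0.11 for SR proteins, 0.012 for their kinases, −0.072 for nuclear RNA decay, 0.12 for the minor and 0.035 for the core spliceosome, −0.052 for mRNA export and 0.28 for NMD factors (2 above and 2 below 0), beside −0.020 over all genes tested. No member of these lists, host or not, was called by edgeR, where 0.193% of all genes were. At an unadjusted p under 0.05 the hosts among them were *Clk4*, *Tra2a*, *Srsf2* and *Snrnp25*, where 8.91% of all hosts and 12.5% of all genes passed.

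*Clk4*, a kinase that phosphorylates SR proteins, had 95.0, 123 and 195 CPM in null embryos, against 40.5, 90.4 and 145 CPM in controls, with all 8 null embryos above the control median. The adjusted p was 0.262 (edgeR). Its introns 6 and 7 were retained, and the isoform with intron 7 had an early stop. *Tra2a*, an SR-like splicing activator, had 51.6, 81.7 and 110.1 CPM and 27.8, 50.7 and 81.6 CPM. Its adjusted p was 0.260 by edgeR, 0.148 by DESeq2 and 0.0626 by voom, and its isoform with intron 5 had an early stop. The log2 fold change of *Snrnp25*, a protein of the minor spliceosome, was 0.20 with an adjusted p of 0.357. That of *Srsf2*, an SR protein with a 502-base intron of its 3′ untranslated region retained in 2 isoforms, was −0.28 with an adjusted p of 0.262. *Srsf2* shares 3194 bases with *Mettl23* and 655 bases with *Mfsd11* on the other strand. Whether reads of these genes enter its count or its models was not tested.

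Of 15 genes known for regulated intron retention, all tested, 9 were hosts. Besides *Clk4* and *Tra2a*, the hosts included *Mat2a*, *Srsf3*, *Srsf5*, *Ddx5*, *Hnrnph1* and *Robo3*. *Srsf5* was a host only through a 21-base gap in its 5′ untranslated region, 1 of the gaps under 50 bases. *Mat2a* encodes an S-adenosylmethionine synthetase, and its last intron is retained when that metabolite is plentiful. Here its levels were 340, 440 and 480 CPM in null embryos, against 378, 487 and 633 CPM in controls, with 8 of 8 null embryos below the control median and an adjusted p of 0.295 (edgeR). A last intron of 241 bases was retained in 1 isoform, and the 1017-base last intron of another annotated transcript in 2. *Robo3*, an axon guidance receptor with a retained intron in neurons, had at most 4.61 CPM in any embryo. Its 1 retaining isoform kept intron 3 of 26, which is not shown to be the intron retained in neurons. The median log2 fold change of the 9 was −0.030, with 4 above and 5 below 0, a split that moves with voom, where *Ddx5*, *Srsf3* and *Robo3* changed sign.

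The 5 hosts with the highest mean CPM did not reach an unadjusted p of 0.05. *Eif5*, a translation initiation factor, had medians of 800.0 CPM in null embryos and 781 in controls, but a log2 fold change of −0.060. *Hsp90ab1*, a constitutive HSP90 chaperone with 5 retained introns in 9 isoforms, had 731 and 779 CPM. Of these isoforms 8 kept a gap of 37 bases, and each of its other introns was retained in 1 isoform. *Dab2*, an endocytic adaptor, *Cul5*, a ubiquitin ligase scaffold, and *Psmd2*, a subunit of the proteasome cap, had log2 fold changes of 0.012, −0.19 and −0.062. In each of the 5 the genotypes overlapped.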

How the data were processed

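Single blastocysts were sequenced from SMARTer cDNA with Nextera XT libraries. The authors deposited raw counts per Ensembl gene, made by featureCounts after STAR 2.5.2a alignment (GRCm38) and removal of duplicate reads; the strand setting is not given in the sources used here. The authors built the transcript models with HISAT2 and StringTie on mm10, guided by GENCODE, and merged them with retained introns kept; these hold exon positions only. The deposited table of scaled expression was not used, since each of its values is a count times a factor per embryo.

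The rule was applied to all transcripts with Python 3.11.15, pandas 2.3.3 and numpy 2.4.6. Positions, coding regions and sequences came from GENCODE M21 transcripts on GRCm38, and figures from matplotlib 3.10.9. No genome sequence was used here, so introns that no M21 exon covers have no sequence. The fit took every gene that reached 10 counts in any embryo, and used edgeR 4.0.16 under R 4.3.3 (TMM, robust quasi-likelihood, no covariate) over all 19 embryos. Calls were made at a Benjamini-Hochberg adjusted p under 0.1. DESeq2 1.42.0 and limma 3.58.1 (voom with quality weights) were alternatives. Levels were cut into 10 bins of mean log2 CPM with a prior count of 2. The fits were checked on simulated counts. Alternatives covered normalization, filters, threshold, the replicate numbers as a block, each embryo left out, the rule and the level bins; 3 further alternatives were added after seeing the data, which left out control embryos 2 and 4 (for the calls and the median) or isoforms without full sequence.

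Genotypes were taken from the labels. Each embryo is a separate animal. The members and the gene lists were chosen with earlier results of these data known. The genes named are the hosts past the threshold, the 5 lowest p in each direction, 5 with most retained introns, 5 with the highest mean CPM, hosts of the 3 longest and 3 shortest introns, hosts in the gene lists with an unadjusted p under 0.05, hosts known for regulated intron retention (1 of them is not reported here), and *Upf2*. The genes named for their U12-type introns were chosen after their values were seen.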

Additional observations from a re-analysis of the deposited data

Results flagged for a closer look

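Of 27 values examined over the 8 *Upf2*-null embryos, 4 had an embryo far from the other 7, measured by its gap to the nearest embryo as a share of the range. Chance flags about 1 in 20 groups, a rate that does not hold where most values are 0. In *Upf2*-null embryo 7, *BC080695* had 0.797 CPM, *Zscan4c* 1.20 CPM and *Zscan4f* 0.398 CPM, and all other null embryos had 0. Any value above 0 in that embryo would have been flagged for these genes. *Robo3* had 4.61 CPM in *Upf2*-null embryo 2, where the next highest null embryo had 1.05 CPM. All 4 genes are near 0 in most null embryos. None was called by edgeR, while the adjusted p of *BC080695* was 0.0174 by DESeq2 and that of *Zscan4c* 0.0893 by voom.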

How the results depend on the processing

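The 7 calls became 23 with DESeq2, 19 with voom and 2 at an adjusted p under 0.05. The share of all genes under 0.05 is not given here. Under 0.1 by edgeR, 3 of the 7 were hosts of introns that no exon of their gene spans. Hosts alone in their locus held 4 (0.211%), where 0.193% of all genes were called. DESeq2 and voom both kept all 7, and called 176 and 114 of all genes where edgeR called 33. With 1 embryo left out, edgeR called 14 to 43 of all genes. Leaving out 1 embryo gave 2 to 8 calls (2 without *Upf2*-null embryo 4), and medians of log2 fold change from −0.036 to −0.010. The difference from genes of similar level ran from −0.022 to 0.024 with 1 embryo left out, and was 0.046 with level taken over controls. With the replicate numbers as a block, 0 host genes and 0 of all genes were called, and the host median was −0.025; numbers shared by the genotypes did not pair the embryos (correlations of deviations from −0.137 to 0.0687, none best with its own number). Introns that no exon of their gene spans were 1862, in 2416 isoforms of 1384 genes. Fold changes near 0 changed sign for *Ddx5* (0.019 by voom, 0.014 without control embryos 2 and 4), *Srsf3* (0.011 and 0.014) and *Robo3* (−1.20 by DESeq2, −0.39 by voom, −1.07 without *Upf2*-null embryo 2, at most 1.45 with another embryo left out). The cause of these changes was not tested. Without control embryos 2 and 4, edgeR called 8 hosts and 30 of all genes (0.18%). The 8 lacked *Chchd5* and *Gm21811* (adjusted p = 0.122 and 0.133). RLE factors ended the call of *Snhg5* (adjusted p = 0.101), and a filter of at least 1 count in all embryos together those of *Chchd5* (0.110) and *Gm21811* (0.168). The other alternatives kept the number of calls, isoforms, introns, hosts and early stops within 1.5 times the values given. Counts per gene at this depth cannot separate a retaining isoform from its spliced partners.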
